A study of Mus musculus with 12 samples.

Results

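Apold1, the SoxF transcription factor genes Sox18, Sox17 and Sox7, the Krüppel-like factor genes Klf2, Klf4 and Klf6, the endothelial nitric oxide synthase gene Nos3 and the ETS factor gene Erg were followed in mouse lung. These 9 genes of the 12309 tested were picked by symbol as genes of the endothelium, the cell layer that lines blood vessels. They were picked with the ventilation results of these arrays known, so their values in ventilated against spontaneously breathing lungs are given as a description without a test. The 9 symbols had 17 probe sets as their sole symbol, all 17 above the filter on low signals. The probe set with the highest mean represents each gene, and 5 of the 9 genes had further probe sets, 8 in all, which served as a check.

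Total lung RNA was measured on 12 Affymetrix mouse genome arrays, 1 per sample, in 4 groups of 3. All animals were male C57BL/6 mice aged 8 to 12 weeks, either wild type (WT) or nmMLCK-/- (the knockout, KO), a name that stands for loss of the non-muscle form of the kinase of myosin light chains, a product of Mylk. Each genotype was either left breathing spontaneously (SB) or ventilated for 4 h at a high tidal volume to injure the lung (VILI). Labels of single samples put the tidal volume at 40 ml/kg, while the text on the series puts it at 30 ml/kg. The rate was 65 breaths per min with 0 cm H2O of pressure at the end of expiration. How the knockout was made, whether animals were pooled and whether the SB mice were anaesthetised are points on which the sources used here say nothing. The groups hold no arm ventilated at a low tidal volume, so ventilation as such and its tidal volume cannot be told apart. Nothing in the labels says how the 3 replicates of a group were raised or handled, so the spread between them may be in part technical.

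Flowing blood is sensed by endothelial cells, and steady laminar flow keeps Klf2 and Klf4 high through the kinases MEK5 and ERK5 and factors of the MEF2 family. KLF2 and KLF4 in turn raise Nos3 and thrombomodulin and restrain inflammatory genes. The SoxF factors and ERG hold the identity of the vessel wall and its junctions, in part through Cldn5, Cdh5 and Notch pathway genes. APOLD1 is a protein of endothelial cells whose gene is known as an early response gene.

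The sequences just upstream of the transcription start are shown for Apold1, Klf2 and Klf4, since the first lay far higher and the other two lower in the ventilated lungs and since they hold matches to signal-responsive motifs. They cover the 250 bases before the start, 5′ to 3′ on the gene's strand, from RefSeq on GRCm38.p6, and capitals mark bases that match any of 9 searched motifs.
Apold1 (chr6:134981751-134982000, plus strand): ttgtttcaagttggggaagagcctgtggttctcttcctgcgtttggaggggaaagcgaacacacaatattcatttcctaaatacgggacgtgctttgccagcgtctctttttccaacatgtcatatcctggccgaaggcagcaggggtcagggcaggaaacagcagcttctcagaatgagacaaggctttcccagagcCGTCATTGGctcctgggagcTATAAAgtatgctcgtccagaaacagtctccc
Klf2 (chr8:72318812-72319061, plus strand): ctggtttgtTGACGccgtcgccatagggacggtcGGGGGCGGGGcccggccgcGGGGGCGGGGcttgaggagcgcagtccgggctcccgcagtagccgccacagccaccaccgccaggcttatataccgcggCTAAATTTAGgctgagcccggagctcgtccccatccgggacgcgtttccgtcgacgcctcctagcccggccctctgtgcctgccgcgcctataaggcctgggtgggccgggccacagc
Klf4 (chr4:55532476-55532725, minus strand): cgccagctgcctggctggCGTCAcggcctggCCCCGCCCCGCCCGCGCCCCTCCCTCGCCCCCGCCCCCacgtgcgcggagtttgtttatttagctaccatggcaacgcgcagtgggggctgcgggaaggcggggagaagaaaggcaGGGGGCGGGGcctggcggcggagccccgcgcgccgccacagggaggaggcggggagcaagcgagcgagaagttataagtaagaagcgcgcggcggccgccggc

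Positions are counted back from the transcription start, and both strands were searched. The Apold1 window holds a TATA box (TATAAA) from -32 to -27. It also holds a CCAAT box on the minus strand from -48 to -44 and a half-site of the cAMP response element, TGACG, on the minus strand from -52 to -48, and these last matches overlap by their base at -48. Of 32851 promoter windows of the same length, 12.4% hold TATAAA, 33.8% hold CCAAT and 17.8% hold TGACG. The Klf2 window holds a match to the MEF2 motif from -118 to -109, which 2.92% of windows hold, and a TGACG from -241 to -237. It also holds 4 matches on the minus strand to a pattern searched for KLF proteins (CCNCNCCC). They lie in separate overlapping pairs from -216 to -207 and from -197 to -188. The Klf4 window holds 9 matches to that pattern and a TGACG on the minus strand from -232 to -228. The 9 matches overlap in separate runs, on the plus strand from -219 to -182 and on the minus strand from -103 to -94. CCNCNCCC occurs in 45.9% of windows, and none of its matches in the Klf2 and Klf4 windows holds the letters CACCC. The other motifs searched were a SOX site (AACAAT, in 9.42% of windows), an ETS site (CCGGAAG, 6.91%), the CArG box (1.47%) and an AP-1 site (TGANTCA, 6.75%), and these letters were not in the 3 windows. A match is a description of the letters and was not tested for use. RefSeq windows were matched for 5 of the 9 genes, the others with a window being Klf6 and Erg. An Erg window that is not shown also holds a match to the MEF2 motif, from -16 to -7, and the Klf4 window holds none.

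Array values are log2 signals, so a difference of 1 is a factor of 2, and they compare groups of arrays for 1 probe set but do not rank different genes by amount. Correlations between arrays ran from 0.9806 to 0.9979. The first principal component, with 51.73% of the variance, separated VILI from SB, and the second, with 17.11%, parted WT-SB replicate 3 and KO-SB replicate 2 from the remaining 4 SB arrays (a split seen in the data). Values without both are given where a call or count changes. The 3 probe sets of Mylk were lower in the knockout under SB by 0.97 ± 0.475 (SE), 0.70 ± 0.255 and 0.22 ± 0.0797, each with a limma adjusted p of 1, and their place relative to the altered part of the gene is not stated in the labels. The 14 endothelial markers tested were all well detected, with mean log2 signals between 9.852 and 14.06. Of all genes tested, 1892 passed for VILI against SB in wild type and 2554 in the knockout.

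Apold1 lay far higher in the ventilated lungs of both genotypes, by 5.57 log2 units in wild type and 4.83 in the knockout. Its log2 signal was 4.54, 5.92 and 4.54 in the WT-SB arrays and 10.70, 10.47 and 10.54 in the WT-VILI arrays. In the knockout it was 6.22, 4.29 and 5.40 under SB and 10.68, 10.29 and 9.42 under VILI. All 6 ventilated arrays stood above all 6 SB arrays by more than 3 log2 units. The SB values lay around the array medians of 4.94 to 5.037, where a signal is close to background. Their SD was 0.793 in WT-SB and 0.969 in KO-SB, against 0.116 in WT-VILI and 0.643 in KO-VILI. The VILI-minus-SB log2 difference was 5.57 ± 0.51 (SE, n = 3 per group) in wild type and 4.83 ± 0.51 in the knockout. Since the SB signals lie near background, these differences depend on the low end of the scale and are not read as folds. In whole lung, more of a cell type and more RNA per cell cannot be told apart, nor can fewer cells and less RNA.

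**Figure D1:**
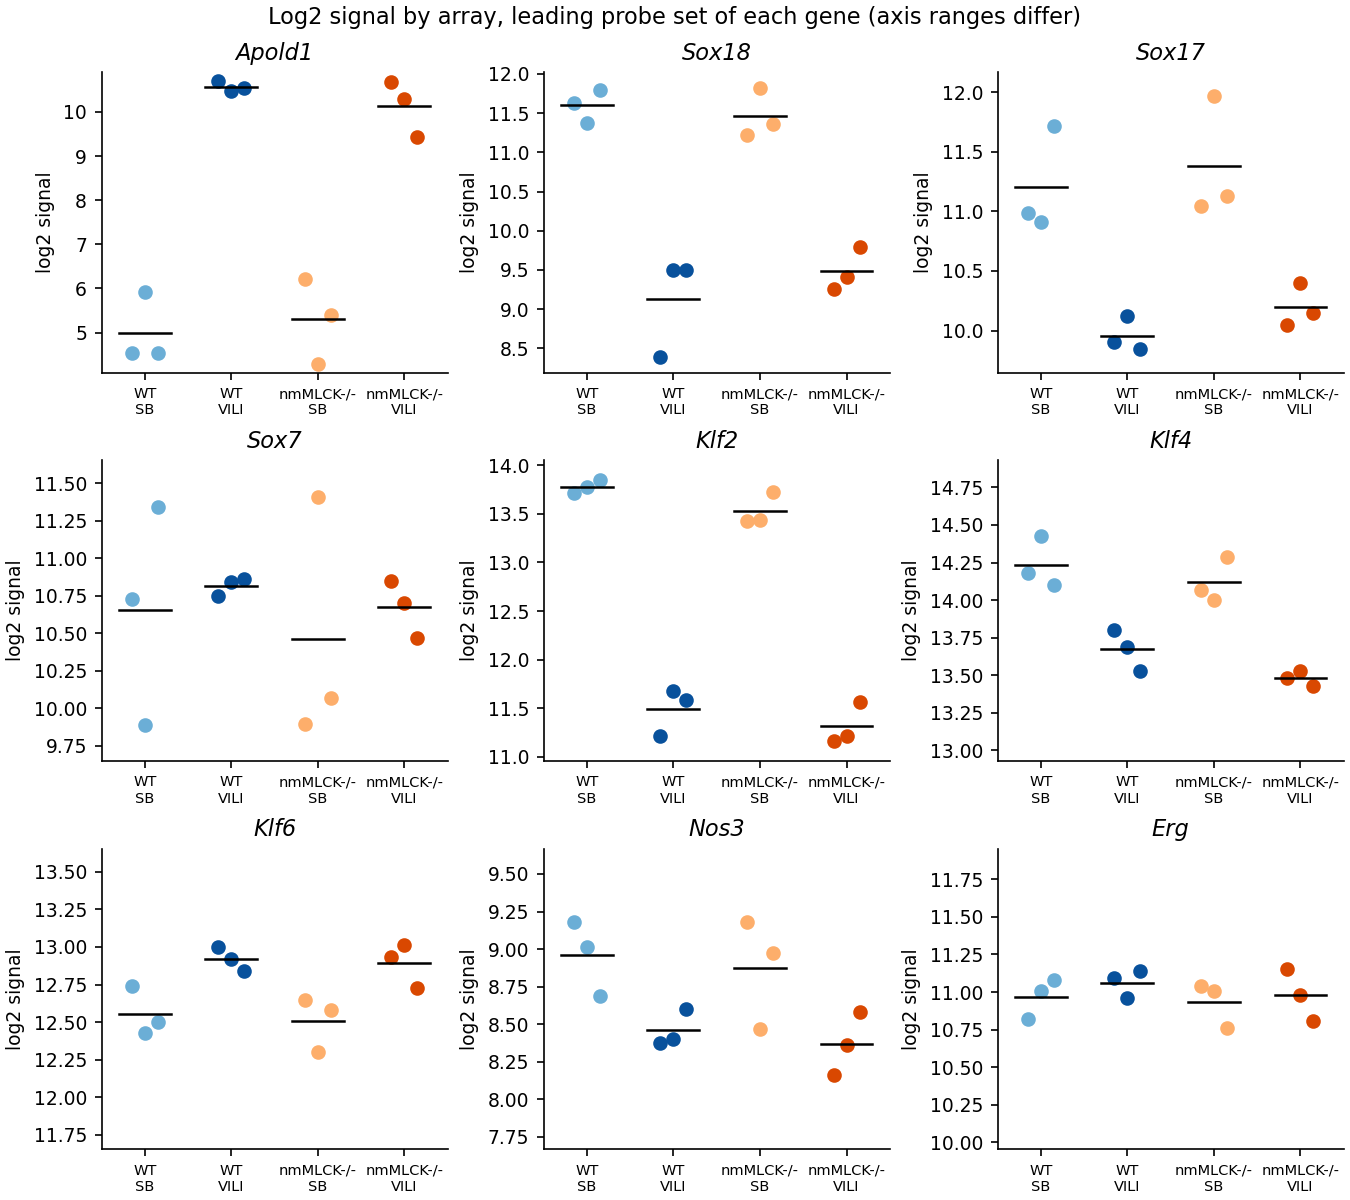
Log2 signal (vertical axis) of Apold1, Sox18, Sox17, Sox7, Klf2, Klf4, Klf6, Nos3 and Erg in each of the 12 arrays, by group (horizontal axis; n = 3 each); dots are arrays and bars are group means, and axis ranges differ between panels. Apold1 ran from 4.29 to 6.22 under SB and from 9.42 to 10.70 under VILI, while Erg stayed between 10.76 and 11.15 in all arrays.

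Sox18, a SoxF factor needed for lymphatic and blood vessel development, was 5.54-fold lower in the ventilated wild-type lungs and 3.95-fold lower in the ventilated knockout lungs. In wild type its log2 signal was 11.63, 11.37 and 11.80 under SB and 8.39, 9.50 and 9.50 under VILI. The knockout arrays held 11.22, 11.82 and 11.36 under SB and 9.26, 9.41 and 9.79 under VILI. No ventilated array reached the lowest SB array, and WT-VILI replicate 1 was the lowest of the 12. The log2 difference was -2.47 ± 0.29 in wild type and -1.98 ± 0.29 in the knockout, rank 10 and rank 32 from the bottom of all genes. Without WT-VILI replicate 1 the wild-type difference was -2.10.

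Sox17, the SoxF factor known for arterial identity, was lower by a factor of 2.38 in wild type and 2.27 in the knockout. Its WT-SB signals were 10.99, 10.91 and 11.72 and its WT-VILI signals 9.90, 10.12 and 9.85. The KO-SB signals were 11.05, 11.97 and 11.13 and the KO-VILI signals 10.05, 10.40 and 10.15. SB and VILI arrays did not overlap in either genotype, and the 2 highest SB arrays were those that stand apart on the second component. The log2 differences were -1.25 ± 0.263 and -1.18 ± 0.263, and -0.99 and -0.89 without both of those arrays. A second Sox17 probe set gave -1.55 and -1.36.

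Sox7, the third SoxF gene, showed no such difference. Its WT-SB signals of 10.73, 9.89 and 11.34 spanned the WT-VILI signals of 10.75, 10.84 and 10.86. In the knockout the SB signals of 9.90, 11.41 and 10.07 likewise spanned the VILI signals of 10.85, 10.70 and 10.47. The log2 difference was 0.16 ± 0.407 in wild type and 0.21 ± 0.407 in the knockout, with a 95% interval from -0.74 to 1.07 in the former, so a change of up to about 1 log2 unit either way could not be resolved. Leaving out WT-SB replicate 3 and KO-SB replicate 2 moved the differences to 0.51 and 0.69, more than 3 times as large, and leaving out WT-SB replicate 2 alone turned the wild-type value to -0.22. In the knockout the value turned to -0.07 without KO-SB replicate 1. A second Sox7 probe set gave 0.76 and 0.27.

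Klf2, the flow-induced factor that keeps endothelium quiescent, was 4.86-fold lower in wild type and 4.65-fold lower in the knockout. Its log2 signals of 13.71, 13.78 and 13.85 in the WT-SB arrays compared with 11.22, 11.68 and 11.59 in the WT-VILI arrays. Knockout signals were 13.43, 13.44 and 13.72 under SB and 11.16, 11.22 and 11.56 under VILI. The gap between the SB and VILI arrays was wider than the spread within any group, and both SB arrays that stand apart lay within or next to the others. The difference of -2.28 ± 0.148 in wild type ranked 15 from the bottom of all genes, and that of -2.22 ± 0.148 in the knockout ranked 17. Klf2 is represented by 1 probe set, as are Apold1, Sox18 and Nos3, so these genes had no second probe set as a check. Klf2 is also abundant in resting lymphocytes, and the markers of T and NK cells are given with the other cell markers further on.

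Klf4, which shares targets with Klf2 in endothelium and is also expressed by epithelium and fibroblasts, was lower by a factor of 1.48 in wild type and 1.56 in the knockout. Under SB its wild-type signals were 14.18, 14.43 and 14.10, against 13.80, 13.69 and 13.53 under VILI. The knockout signals were 14.07, 14.00 and 14.29 under SB and 13.48, 13.53 and 13.43 under VILI. Groups did not overlap in either genotype, and the log2 differences of -0.57 ± 0.115 and -0.64 ± 0.115 were smaller than those of Klf2. A second Klf4 probe set gave -0.78 and -0.92.

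Klf6, a KLF family gene that responds to injury in many cell types, was higher by a factor of 1.29 in wild type and 1.30 in the knockout. Its wild-type signals were 12.74, 12.43 and 12.50 under SB and 13, 12.92 and 12.84 under VILI, and its knockout signals 12.65, 12.30 and 12.58 under SB and 12.93, 13.01 and 12.73 under VILI. On this leading probe set the groups did not overlap, although the highest SB array of each genotype came close to the lowest VILI array. Differences were 0.36 ± 0.123 and 0.38 ± 0.123. The 4 other Klf6 probe sets gave 0.22 to 0.41 in wild type and 0.21 to 0.51 in the knockout, all in the same direction. Their SE ran from 0.15 to 0.375, and for some of them SB and VILI arrays overlapped in both genotypes.

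Nos3, whose product makes nitric oxide in endothelium, was lower by a factor of 1.42 in both genotypes. In wild type its signals were 9.18, 9.02 and 8.69 under SB and 8.37, 8.40 and 8.60 under VILI. In the knockout they were 9.18, 8.47 and 8.97 under SB and 8.16, 8.36 and 8.58 under VILI, so KO-SB replicate 2 lay among the ventilated arrays. The log2 difference was -0.50 ± 0.192 in wild type and -0.51 ± 0.192 in the knockout, and -0.64 and -0.71 without both SB arrays that stand apart.

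Erg, an ETS factor that maintains endothelial junctions, showed no difference between states. Its signals were 10.82, 11.01 and 11.08 in WT-SB, 11.09, 10.96 and 11.14 in WT-VILI, 11.04, 11.01 and 10.76 in KO-SB, and 11.15, 10.98 and 10.81 in KO-VILI. All 4 groups overlapped, and the differences of 0.09 ± 0.118 and 0.04 ± 0.118 had 95% intervals from -0.17 to 0.36 and from -0.22 to 0.31. The second Erg probe set was dim and scattered, with differences of 0.73 and 1.25 and an SE of 1.01.

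By leading probe set, SB and VILI arrays did not overlap for 7 of the 9 genes in wild type and 6 of the 9 in the knockout. Of all 12309 genes, 36% did not overlap in wild type and 43.8% in the knockout. The adjusted p was under 0.05, with a higher level under VILI, for 6.34% of all genes in wild type and 8.12% in the knockout, and with a lower level for 9.03% and 12.6%. The members were picked with this contrast known, so nothing is read from their count.

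**Figure D2:**
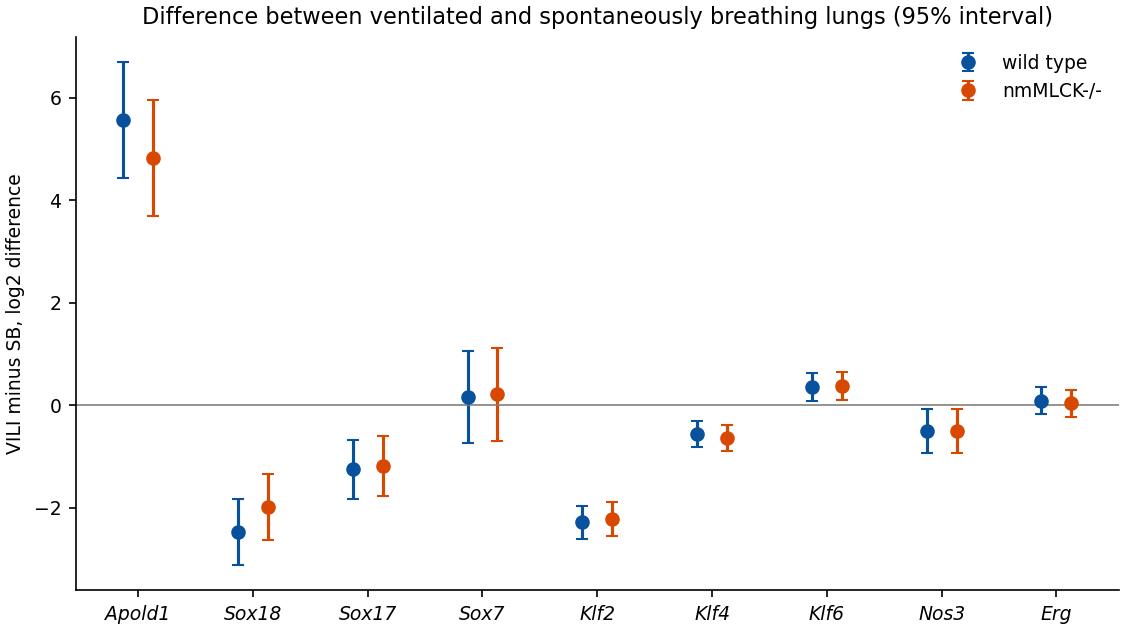
VILI-minus-SB log2 difference (vertical axis) of the 9 genes (horizontal axis) in wild type and nmMLCK-/- lungs; dots are differences of group means (n = 3 arrays per group) and bars are 95% intervals from limma. Apold1 stands at 5.57 and 4.83, Klf2 at -2.28 and -2.22, and the intervals of Sox7 and Erg include 0.

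The genotype comparisons were taken as not used to pick the genes, although the sources used here do not state this. These comparisons were tested in the limma fit over all 12309 genes. By limma, 0 of the 9 genes passed between knockout and wild type under SB, under VILI or in the difference of the 2 responses, and the count at an unadjusted p under 0.05 was also 0 in each. The background was low, with 0.0487% of all genes called under SB, 0.106% under VILI and 0% for the difference of responses. At an unadjusted p under 0.05 there were 460, 1070 and 619 of the 12309 genes. By leading probe set, knockout and wild-type arrays overlapped for all 9 genes in both states. Of all genes, 6.6% did not overlap among the SB arrays and 20.5% among the VILI arrays. On their leading probe sets the 9 genes had limma adjusted p-values of 1 throughout under SB, 0.659 to 0.975 under VILI and 0.982 to 1 for the difference of responses. The second Klf4 probe set did not overlap under VILI, at 11.88 to 12 in the knockout against 12.26 to 12.47 in wild type. Its knockout-minus-wild-type difference there was -0.46 ± 0.17 (limma adjusted p 0.428 in a fit over probe sets).

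The largest difference of responses was that of Apold1, -0.74 ± 0.722 (SE) on the log2 scale with a 95% interval from -2.34 to 0.86. The value ran from -0.28 without KO-SB replicate 1 to -1.25 without KO-SB replicate 2, and KO-VILI replicate 3, at 9.42, was the lowest ventilated array. Sox18 differed by 0.49 ± 0.411 with an interval from -0.42 to 1.40, and the value was 0.12 without WT-VILI replicate 1. For Klf2 the interval ran from -0.40 to 0.53, for Klf4 from -0.43 to 0.29, for Klf6 from -0.37 to 0.40 and for Erg from -0.42 to 0.32. The intervals of Sox17, from -0.76 to 0.89, Nos3, from -0.60 to 0.60, and Sox7, from -1.23 to 1.33, were wider. Under SB, Klf2 was 0.25 ± 0.148 lower in the knockout, with an interval from -0.58 to 0.08 that includes 0.

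**Figure D3:**
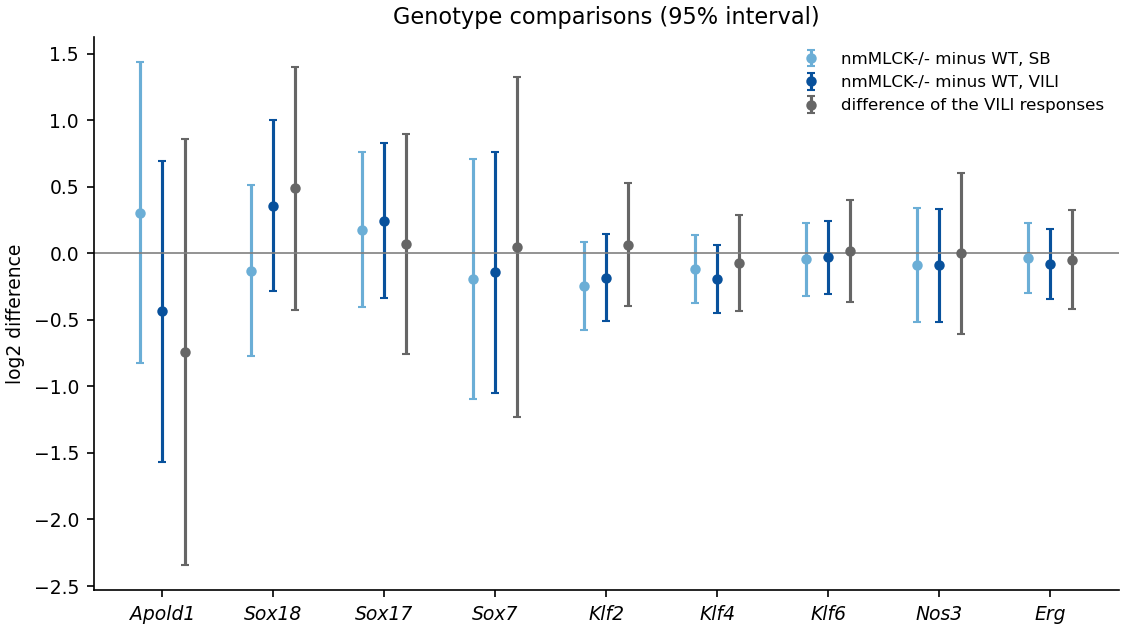
Log2 difference between nmMLCK-/- and wild type under SB and under VILI, and the difference of the VILI-minus-SB responses (vertical axis), for the 9 genes (horizontal axis); dots are limma estimates (n = 3 arrays per group) and bars are 95% intervals. Every interval includes 0, and the widest, for the responses of Apold1, runs from -2.34 to 0.86.

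The genes also varied among the 6 SB arrays. WT-SB replicate 3 and KO-SB replicate 2 had Sox17 signals of 11.72 and 11.97, against 10.91 to 11.13 in the other 4, and Sox7 signals of 11.34 and 11.41, against 9.89 to 10.73. Sox18 was also highest in these arrays, at 11.80 and 11.82 against 11.22 to 11.63. Nos3 went the other way, at 8.69 and 8.47 against 8.97 to 9.18. Klf2 did not part these arrays, at 13.85 and 13.44 against 13.43 to 13.78. As a description over the 12 arrays, deviations from the group means correlated at 0.87 between Sox17 and Sox7, but at 0.131 over the 10 arrays without both. For Sox7 and Nos3 the values were -0.775 and -0.0754, and for Sox17 and Nos3 -0.787 and -0.0232. Sox18 and Klf2 deviated together at 0.689 over 12 arrays and 0.854 over 10. These arrays share their processing and their groups, and no test was made.

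**Figure D4:**
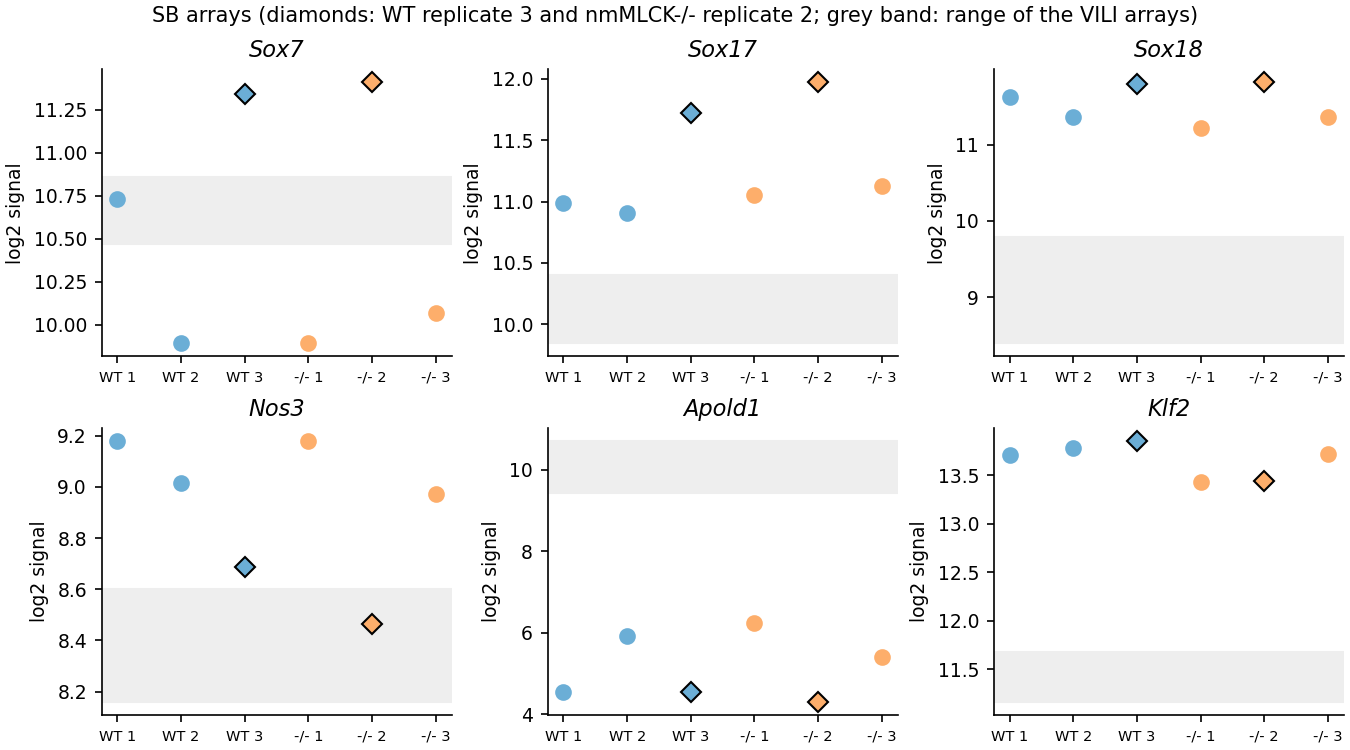
Log2 signal (vertical axis) of Sox7, Sox17, Sox18, Nos3, Apold1 and Klf2 in each of the 6 SB arrays (horizontal axis; WT and nmMLCK-/- replicates 1 to 3), with diamonds for WT-SB replicate 3 and KO-SB replicate 2 and a grey band for the range of the 6 VILI arrays. The diamonds are the highest for Sox7, Sox17 and Sox18 and the lowest for Nos3.

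Of 22 other endothelial transcription factor genes tested, 2 rose and 2 fell in wild type and 2 rose and 1 fell in the knockout, with median log2 differences of -0.06 and -0.04 against -0.05 for all genes in both. These counts and those of the lists that follow stand beside shares of all genes of 6.34% higher and 9.03% lower in wild type and 8.12% and 12.6% in the knockout. Meox2, a homeobox gene of vessels, fell by 1.80 ± 0.298 in wild type and by 1.74 ± 0.298 in the knockout (limma adjusted p 0.00453 and 0.00452). Bcl6b, a transcriptional repressor, rose by 2.07 ± 0.494 and 2.01 ± 0.494 (limma adjusted p 0.0204 and 0.0198), a call lost in 3 of the 12 fits that each leave out 1 array in each genotype, with a largest adjusted p of 0.074 without WT-SB replicate 1 and 0.0613 without KO-SB replicate 3. Etv6, an ETS family repressor, rose by 0.53 and 0.48 (limma adjusted p 0.0115 and 0.0148), the latter not called without KO-SB replicate 2, at 0.0533. Hey1, a Notch target, fell by 1.12 in wild type (limma adjusted p 0.0292) and was -0.67 in the knockout (0.123, and 0.0438 without WT-SB replicate 2), and its 2 responses were not shown to differ (adjusted p 0.982). The wild-type call of Hey1 was lost in 4 of the 12 fits, with up to 0.096 without WT-SB replicate 1. Without both SB arrays that stand apart, 4 of these genes rose and 6 fell in wild type, with Fli1, Lmo2, Lyl1, Gata2, Foxo3 and Nr2f2 newly called at limma adjusted p-values of 0.0161 to 0.0498.

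Of 11 other KLF genes, 1 rose in wild type and 2 rose and 1 fell in the knockout. Klf7 rose by 0.73 ± 0.101 and 0.72 ± 0.101 (limma adjusted p 0.00185 and 0.00193). Klf5 rose by 0.73 in the knockout (adjusted p 0.0173) and was 0.39 in wild type (0.153), and Klf3 fell by 0.50 in the knockout (0.0199) and was -0.24 in wild type (0.216). The Klf5 call was lost in 2 of 12 fits, with a largest adjusted p of 0.0679 without KO-VILI replicate 2, and the Klf3 call in 4, with 0.0642 without the same array. With the mean of all its probe sets Klf3 was -0.24 in the knockout (0.34). Among 10 other SOX genes, Sox13 fell by 0.90 in wild type (limma adjusted p 0.0219) and was -0.48 in the knockout (0.142), with the call lost in 3 of 12 fits and 0.083 without WT-SB replicate 1. The responses of Klf5, Klf3 and Sox13 were not shown to differ between genotypes, with limma adjusted p-values of 0.982, 0.979 and 0.982. Without both SB arrays that stand apart, Klf15 passed in wild type (-0.42, 0.0333), Klf11 in the knockout (-0.57, 0.017), Sox5 in the knockout (-0.55, 0.0419) and Sox11 in both, in opposite directions (3.83 and -0.91, 5.66e-05 and 0.0173).

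Upstream of Klf2 and Klf4, 13 genes of the MEK5-ERK5-MEF2 pathway and of the CCM proteins that restrain it were tested. In wild type 1 rose and 2 fell, and in the knockout 1 rose and none fell. Mef2d, which encodes a MEF2 factor, rose by 0.48 and 0.51 (limma adjusted p 0.0363 and 0.0239). Map3k2, a kinase that activates MEK5, and Hdac7, a deacetylase that binds MEF2, fell in wild type by 0.42 and 0.36 (adjusted p 0.0298 and 0.0415), against -0.32 and 0.03 in the knockout (0.0669 and 0.882). Mef2d lost its call in 7 of 12 fits in wild type (up to 0.113 without WT-SB replicate 1) and 4 in the knockout (up to 0.0813 without KO-SB replicate 2), Map3k2 in 5 (up to 0.101 without WT-SB replicate 1) and Hdac7 in 10 (up to 0.132 without WT-VILI replicate 2). Map3k2 passed in the knockout without KO-SB replicate 3 (0.0322). With the mean of all probe sets of a gene, Mef2d, Map3k2 and Hdac7 lost their calls. Leaving out both SB arrays that stand apart, Map3k2 did not pass in wild type (-0.39, 0.0699) nor Mef2d in the knockout (0.38, 0.0527), which left 1 gene that fell in wild type and none that rose in the knockout.

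Downstream, 6 target genes of KLF2 and KLF4 were tested. In wild type none rose and 1 fell, and in the knockout 1 rose and 1 fell. Thbd, which encodes the anticoagulant thrombomodulin, fell by 0.47 ± 0.091 in wild type and 0.58 ± 0.091 in the knockout (limma adjusted p 0.00868 and 0.00309) and kept its call in all 12 fits of each genotype. F3, the gene of tissue factor, which starts coagulation, was 1.32 ± 0.426 higher in wild type without passing (0.0616) and rose by 1.33 ± 0.426 in the knockout (0.0496). The F3 call was lost in 10 of 12 fits in the knockout, with up to 0.165 without KO-SB replicate 2, and F3 passed in wild type without WT-SB replicate 2 (0.0328) or without KO-SB replicate 2 (0.0319). Without both SB arrays that stand apart 2 of the 6 rose in wild type, F3 by 0.85 (0.0202), over 1.5 times less than with them, and the adhesion molecule gene Vcam1 by 0.75 (0.0067, against 0.206 with them).

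Of 13 genes known as targets of SoxF factors or ERG, 2 rose and 2 fell in wild type and 2 rose and 3 fell in the knockout. Robo4, a receptor that stabilises vessels, rose by 0.55 ± 0.091 and 0.71 ± 0.091 (limma adjusted p 0.00432 and 0.00134). Egfl7, a secreted endothelial protein gene, fell by 0.50 ± 0.105 and 0.54 ± 0.105 (0.0118 and 0.00735). Eng, a co-receptor of TGF-beta family ligands, fell by 0.43 and 0.55 (0.0167 and 0.00521), not called in wild type without WT-VILI replicate 3 (0.0629). Tek, the angiopoietin receptor, fell by 0.75 in the knockout (0.02), with the call lost in 2 of 12 fits and 0.073 without KO-SB replicate 2, and was -0.56 in wild type (0.0667), where it passed without KO-VILI replicate 3 (0.0398). Cldn5, the tight junction gene, is named after its values were seen and rose by 0.45 and 0.38 (0.0279 and 0.0463). That call was lost in 5 of 12 fits in wild type, with up to 0.101 without WT-SB replicate 1, and in 9 in the knockout, with up to 0.156 without KO-SB replicate 2. Leaving out both SB arrays that stand apart, Cldn5 was 0.30 in the knockout (0.13), and Notch4, a Notch receptor gene, fell by 0.53 in wild type (0.0246).

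In the VEGF and Notch list of 14 genes, none rose, 2 fell in wild type and 1 in the knockout. Beside Hey1, the Notch ligand gene Jag1 fell by 0.75 in wild type (limma adjusted p 0.0297) and was -0.42 in the knockout (0.15), with the call lost in 4 of 12 fits and 0.101 without WT-VILI replicate 1. Nrp1, a VEGF co-receptor, fell by 0.43 in the knockout (0.0343) and was -0.34 in wild type (0.0895), with the call lost in 4 of 12 fits and 0.12 without KO-SB replicate 2. With both of those SB arrays left out, Nrp1 was -0.33 in the knockout (0.0717) and Jag2, another Notch ligand gene, fell by 0.87 and 0.76 (0.00699 and 0.0128). The list medians of -0.23 in both genotypes compared with -0.05 for all genes.

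Around Nos3, 10 other genes of nitric oxide synthesis and response were tested, of which 1 rose and 1 fell in wild type and 2 rose and 2 fell in the knockout. Gch1, whose enzyme starts the synthesis of the cofactor of nitric oxide synthases, rose by 0.65 ± 0.151 and 0.56 ± 0.151 (limma adjusted p 0.0177 and 0.0277). That call was lost in 3 of 12 fits in wild type (up to 0.0585 without WT-SB replicate 1) and in 4 in the knockout (up to 0.0903 without KO-VILI replicate 1). In the knockout, the subunit genes of soluble guanylate cyclase, the receptor of nitric oxide, were lower under VILI than under SB. There Gucy1a1 fell by 0.69 ± 0.0976 (0.00197) and Gucy1b1 by 0.61 ± 0.12 (0.00826). In wild type Gucy1a1 fell by 0.33 (0.0449, lost in 10 of 12 fits with up to 0.133 without WT-VILI replicate 2) and Gucy1b1 was -0.18 (0.333), and the 2 genotypes' responses were not shown to differ (0.971 for each). Arg2, whose enzyme competes for arginine, rose by 2.01 ± 0.602 in the knockout (0.0399) and was 1.42 in wild type (0.137). Its knockout call was lost in 8 of 12 fits, with up to 0.101 without KO-VILI replicate 3, and it passed in wild type without KO-SB replicate 2 (0.0194). When both SB arrays that stand apart were left out, 3 of the 10 rose and none fell in wild type, where Arg2 rose by 0.99 (0.0105), Nostrin by 0.64 (0.0129) and Gucy1a1 was -0.30 (0.0751). Arg2 then rose by 1.18 in the knockout (0.00582), over 1.5 times less than with them.

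The 10 immediate early genes tested were set beside Apold1, and 1 rose in wild type, 2 rose in the knockout and none fell. Fosl1, an AP-1 subunit gene, rose by 3.82 ± 0.739 in wild type and 3.09 ± 0.739 in the knockout (limma adjusted p 0.0087 and 0.0176), the latter not called without KO-VILI replicate 2 (0.0607) or KO-VILI replicate 1 (0.0602). Mean Fosl1 signals under SB were 4.358 in wild type and 4.405 in the knockout, close to background, so its differences also depend on the low end of the scale. Junb rose by 1.44 in the knockout (0.0397) and was 0.92 in wild type (0.176). The Junb call was lost in 8 of 12 fits, with up to 0.135 without KO-SB replicate 2, and Junb passed in wild type without WT-SB replicate 1 (0.0462). It was 1.03 in the knockout (0.104) without both SB arrays that stand apart. The list median was 0.72 in wild type and 1.40 in the knockout. From the apolipoprotein L family, 2 genes were tested and neither passed. Named after their values were seen, Apol8 was 3.45 ± 1.08 and 1.84 ± 1.08 (0.0549 and 0.241, and in wild type 0.015 without WT-VILI replicate 3 and 0.0446 without KO-VILI replicate 3) and Apol11b -0.35 and 0.73 (0.631 and 0.26).

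**Figure D5:**
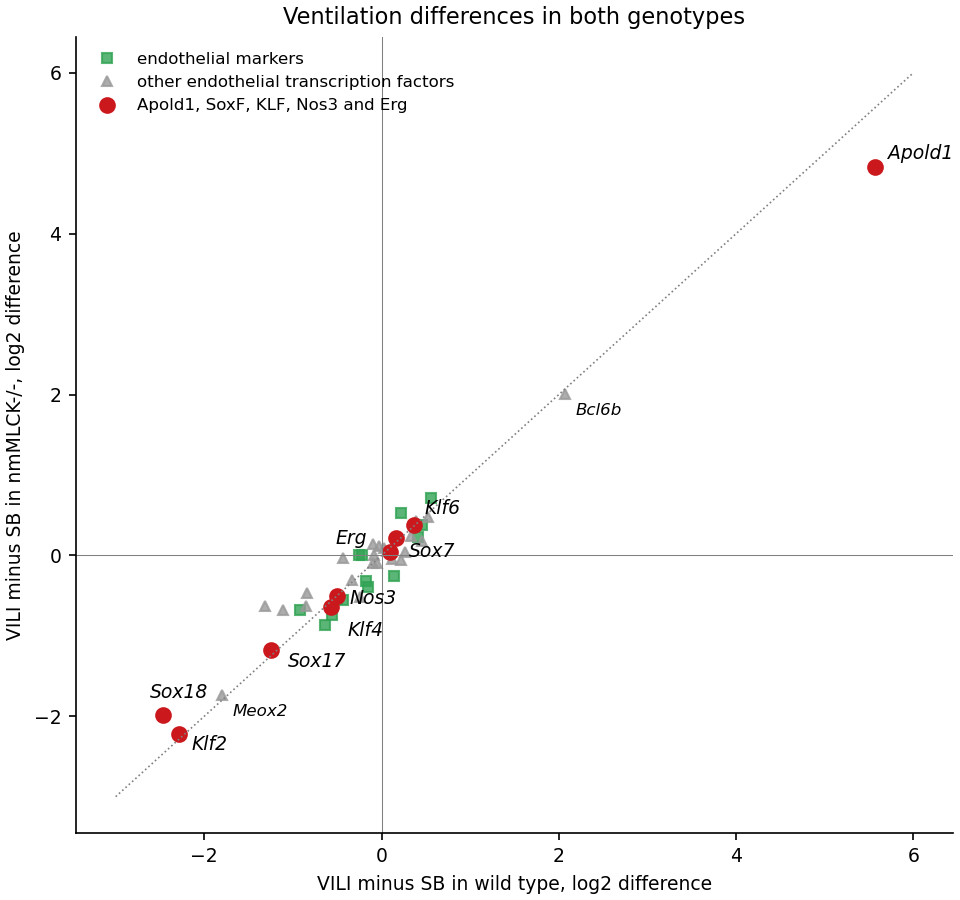
VILI-minus-SB log2 difference in wild type (horizontal axis) against that in nmMLCK-/- (vertical axis) for the 9 genes (circles), 14 endothelial markers (squares) and 22 other endothelial transcription factor genes (triangles); the dotted line marks equal values and each point rests on 3 arrays per group. Apold1, Sox18, Sox17 and Klf2 lie beyond the 14 endothelial markers drawn, which run from -0.92 to 0.55 in wild type. Separate lists of arterial and venous markers reached -1.15 and -1.24 in wild type, close to Sox17. Bcl6b and Meox2 lie beyond the other triangles.

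Levels of endothelial markers were set beside these values. Of 14 markers, 8 of them also in the SoxF and ERG target list, 3 rose and 3 fell in wild type and 2 rose and 5 fell in the knockout, with medians of -0.20 and -0.28. Ramp2, part of the adrenomedullin receptor and named after its values were seen, fell by 0.92 ± 0.118 and 0.68 ± 0.118 (limma adjusted p 0.00128 and 0.00468). The other markers called in both genotypes were Robo4, Cldn5, Eng and Egfl7, given with the target list. Esam, a junction gene, rose by 0.41 in wild type (0.0207), with the call lost in 5 of 12 fits and up to 0.0652 without WT-VILI replicate 3. In the knockout Tek fell, and so did Calcrl, the partner of Ramp2, by 0.86 (0.0285), with the call lost in 4 of 12 fits and up to 0.099 without KO-SB replicate 2. In wild type Calcrl was -0.64 (0.0911), and with the mean of all its probe sets the values were -1.73 in wild type (0.0199) and -1.62 in the knockout (0.0216), both past the threshold. The median deviation of the 14 markers from their means ran from 0.11 to 0.29 in WT-SB, from -0.12 to 0.04 in WT-VILI, from -0.05 to 0.21 in KO-SB and from -0.23 to -0.10 in KO-VILI. The sum of their signals on the linear scale ran from 99420 to 114900 and from 95950 to 108500 in the SB groups, wild type first, and from 83040 to 91450 and from 77120 to 82520 in the VILI groups. Taken relative to the marker median of each array, a setting chosen after seeing the data, Apold1 was 5.77 and 5.06, Sox18 -2.27 and -1.75, Sox17 -1.05 and -0.94, and Klf2 -2.08 and -1.98. Klf4 was then -0.36 and -0.40, Nos3 -0.30 and -0.27, Klf6 0.57 and 0.62, Sox7 0.37 and 0.45, and Erg 0.30 and 0.28. The median of all genes was 0.15 and 0.19 on that scale. On it the differences of Klf4 and Nos3 were over 1.5 times smaller and those of Klf6, Sox7 and Erg over 1.5 times larger. In separate lists of vessel types no marker rose. Of 7 capillary markers 1 fell in wild type and 3 in the knockout. Of 4 arterial markers 1 fell in each genotype, and the lowest difference was -1.15 in both. Of 3 venous markers 1 fell in wild type, where the lowest was -1.24, and none in the knockout. Of 4 lymphatic markers none fell in wild type and 1 in the knockout.

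Some markers of neutrophils, T and NK cells, ciliated cells, fibroblasts and alveolar macrophages also differed between ventilated and SB lungs. Of 7 neutrophil markers tested, 2 rose in wild type and all 7 in the knockout, and their summed signal ran from 6175 to 42100 in WT-SB, 4086 to 5281 in KO-SB, 30500 to 51220 in WT-VILI and 35070 to 58290 in KO-VILI. WT-SB replicate 3, which stands apart, had a neutrophil deviation of 1.13, within the range of the ventilated arrays. Of 6 T and NK cell markers, none rose in wild type and 1 in the knockout, and their summed signal ran from 466.7 to 654.9 in WT-SB, 415.9 to 722.8 in KO-SB, 910.5 to 989.9 in WT-VILI and 860.5 to 1004 in KO-VILI. Of 3 B cell markers none passed, with medians of -0.03 and 0.79. None of 4 platelet markers passed either (medians -0.334 and 0.155), nor any of 3 markers of club cells of the airway epithelium (-0.11 and 0.0284). Of 5 markers of ciliated cells, 4 fell in wild type and 3 in the knockout, with median log2 differences of -0.86 and -0.59, and their summed signal ran from 4688 to 5410 in WT-SB, 4203 to 5415 in KO-SB, 2513 to 3224 in WT-VILI and 2763 to 3281 in KO-VILI. Of 5 fibroblast markers, 2 rose in wild type and 1 rose and 2 fell in the knockout, and of 6 alveolar macrophage markers 2 rose in wild type and none in the knockout. The part of any of these cell types in the values of the 9 genes was not tested.

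The 5 genes whose log2 signal over the 12 arrays was most like that of Apold1 were Gnl3, Creb5, Fyn, Acot9 and Slc20a1. Their Pearson r was 0.991, 0.989, 0.986, 0.984 and 0.984, and the r of deviations from the group means was 0.852, 0.824, 0.659, 0.683 and 0.742. Their own VILI-minus-SB differences were smaller, at most 2.51 in wild type for Creb5. For Sox18 the 5 were Rpp14, Zbtb46, Hdac11, Prr18 and Rasgef1a, with r of 0.991, 0.990, 0.980, 0.977 and 0.976 and deviations at 0.972, 0.934, 0.751, 0.853 and 0.793. Zbtb46 encodes a zinc finger factor found in endothelium and dendritic cells, and its VILI-minus-SB difference was -1.64 in wild type and -1.48 in the knockout. The 12 points share the split between SB and VILI, which sets most of each r, so these are descriptions without a test.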

How the data were processed

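The authors deposited log2 signals per probe set, normalized between arrays. The submitters' processing notes name MAS5 and GCRMA with no version and no role for each. Differences near background are less certain after a summary of this kind. It also evens out the arrays, so a change in total RNA cannot be seen. The annotation and its build are not given in the sources used here. Of 45037 probe sets, 34945 had 1 symbol in the platform annotation, 932 several and 9160 none. Those whose mean was under the 40th percentile (3.056) were left out, and the brightest probe set on average stood for each of 12309 genes. Groups were compared with limma 3.58.1 in R 4.3.3 (lmFit and eBayes, 4 group means, 12 arrays) with Benjamini-Hochberg adjustment over all genes, at 0.05. The fit was tested on simulated data. The median SE was 0.148 for a difference of 2 groups and 0.209 for a difference of responses, and 3 arrays per group limit the precision. The 9 genes, the 10 gene lists and the 16 marker lists were chosen with earlier results of these data known. Named list genes are the up to 4 with the smallest p among those past the threshold in either ventilation contrast. Alternatives covered scaling, the filter, the probe set choice, the eBayes trend, a replicate block and leaving out arrays.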

Additional observations from a re-analysis of the deposited data

How the results depend on the processing

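Of the 9 genes, none was called in a genotype comparison under any alternative run. Leaving out each of the 12 arrays in turn gave 933 (without WT-SB replicate 1) to 2052 (without WT-SB replicate 2) genes called for VILI against SB in wild type and 1232 (without KO-VILI replicate 2) to 3301 (without WT-SB replicate 3) in the knockout, against 1892 and 2554. For knockout against wild type it gave 0 to 16 under SB and 2 to 19 under VILI, and 0 to 6 for the difference of responses, against 6, 13 and 0. Under VILI, 6 genes were called with no filter and 8 with the filter at the 60th percentile, and the difference of responses gave 1 with no filter. Without both SB arrays that stand apart, chosen after seeing the data, the counts were 19, 28 and 11. Same-numbered arrays correlated in their deviations at -0.628 to 0.398 over 12 pairs. Differently numbered arrays were not compared, so these values do not settle whether the numbers pair the samples. With the replicate block, 1433 and 1884 genes were called for VILI against SB, 0 under SB and 2 under VILI. With array medians set equal, the wild-type split was 926 higher and 839 lower, against 780 and 1112. Relative to the endothelial marker median of each array, chosen after seeing the data, it was 1429 and 500 in wild type and 2114 and 615 in the knockout, against 999 and 1555.

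Counts of list genes called moved by at most 2 genes when 1 array was left out. No value past the threshold turned its sign. With the mean of all probe sets, Sox7 was 0.22 under SB and -0.22 for the difference of responses, Erg 0.24 for the latter, and the knockout responses of Map3k2 and Hdac7 were 0.18 and -0.16. Without both SB arrays, Klf2 (-0.0176) and Klf6 (-0.0577) turned for the difference of responses and Klf6 under SB (0.0277). The cause was not tested.
Leaving out 1 array moved the knockout-minus-wild-type value under SB between -0.15 and 0.81 for Apold1, -0.11 and 0.43 for Sox17, -0.67 and 0.15 for Sox7, -0.117 and 0.0579 for Klf6, -0.24 and 0.11 for Nos3, and -0.108 and 0.053 for Erg. Under VILI the ranges were -0.0126 to 0.542 for Sox18, -0.091 to 0.0511 for Klf6, -0.197 to 0.0131 for Nos3 and -0.167 to 0.00326 for Erg. For the difference of responses they were -0.19 to 0.36 for Sox17, -0.29 to 0.53 for Sox7, -0.0753 to 0.161 for Klf2, -0.169 to 0.00982 for Klf4, -0.0878 to 0.0978 for Klf6, -0.20 to 0.15 for Nos3 and -0.136 to 0.0368 for Erg, and for the knockout response of Hdac7 -0.0431 to 0.122.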
